A study of Homo sapiens with 4 samples.

Results

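The serum response factor gene SRF was followed together with 9 genes of the actin cytoskeleton by RNA sequencing in HCT116, a long-established line grown from a human colorectal carcinoma, whose genotype the labels give as wild type. The 10 genes, chosen by name, were SRF, the cytoplasmic actins ACTB and ACTG1, the myosin light chain MYL9, the filament regulators TAGLN, TPM1 and CNN2, the crosslinkers FLNA and ACTN1, and the adhesion gene VCL. All 10 were found among the 20263 genes listed, and all 10 were among the 14062 genes that passed the filter on low counts. Cells received either 30 µM HJ-23 or 0.1% DMSO, the solvent control, and RNA was taken after 24 hours. Each group had 2 libraries. The titles of the treated libraries say HJ-23, while their treatment field says HJ-25, and the titles were used. The labels do not mention separate cultures within a group, so the p-values reflect only library-to-library spread, and that spread may be technical. A single cell line was used.

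Total counts ran from 29769568 to 34831207 per library. Levels of 8 epithelial markers were examined. EPCAM, CDH1, KRT8, KRT18, KRT19, CDX2 and ELF3 had enough counts to be tested, and CDX1 had a count of 0 in each library, which allows up to 0.205 CPM. CPM here is the count scaled to the size of its library. The summed level of the 8 epithelial markers ran from 4286 to 4741 CPM in DMSO and from 4212 to 5716 CPM in HJ-23. Of 12 smooth muscle and fibroblast markers, COL1A2, DCN and LUM had a count of 0 in each library. The summed level of those 12 markers ran from 109 to 114 CPM in DMSO and from 108 to 118 CPM in HJ-23, mostly from COL1A1 and VIM. In bulk RNA, fewer cells expressing a gene and less RNA of that gene per cell cannot be told apart.

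SRF is a transcription factor that binds a short element called the CArG box, which has CC at its start, GG at its end and only A or T between them. It works with the MRTF coactivators, which bind unpolymerized actin and are released to the nucleus when actin is built into filaments, and with the ELK ternary complex factors, which respond to growth factor signalling. MRTF and SRF together drive many genes for actin itself and for proteins that bind, bundle or anchor actin filaments, so the system is known as a loop that couples the state of the cytoskeleton to transcription. In epithelial cells these proteins support the cell cortex, adhesion to the matrix and migration.

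The CArG box was looked for in the promoter windows of RefSeq (build GRCh38.p14), which run from 250 bases before a start site to 50 after it. The table matched 7 of the 10 genes, all but ACTB, MYL9 and TAGLN, with 11 windows because SRF and ACTN1 have several start sites. A CArG box was present in 5 of these 11 windows, against 1.29% of all 35116 windows. The stretch around it is given for each gene that had it, on the strand of the gene and upstream of its start site, with the CArG box in capitals, because these are the elements that the name of the gene set refers to. Matches are descriptions of the letters and not evidence of binding.
SRF, chr6:43171214-43171268, plus strand: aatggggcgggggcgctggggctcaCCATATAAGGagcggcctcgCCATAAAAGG
ACTG1, chr17:81512859-81512918, minus strand: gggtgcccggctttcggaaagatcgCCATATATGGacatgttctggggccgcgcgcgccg
FLNA, chrX:154374694-154374753, minus strand: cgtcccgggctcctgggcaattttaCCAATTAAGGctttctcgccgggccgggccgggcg
CNN2, chr19:1026494-1026553, plus strand: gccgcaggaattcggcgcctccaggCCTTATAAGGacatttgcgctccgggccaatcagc
ACTN1, chr14:68977703-68977762, minus strand: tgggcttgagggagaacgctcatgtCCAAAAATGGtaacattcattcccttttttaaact
The SRF stretch holds 2 boxes, whose first bases lie at -30 and -10 from the start site. The box of ACTG1 and that of FLNA both begin at -94, that of CNN2 at -89, and that of ACTN1 at -171 from the third of its 4 listed start sites. The windows of VCL and TPM1 held no such box.

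The question was how far the levels of these genes differed after HJ-23 from those after solvent alone. SRF, both actins, MYL9, VCL and FLNA had their 2 HJ-23 libraries above their 2 DMSO libraries, by 1.27- to 1.55-fold in the fitted means, while TAGLN, TPM1, CNN2 and ACTN1 had overlapping groups. None of the 10 genes passed the test across all genes. With edgeR's quasi-likelihood test and Benjamini-Hochberg adjustment at 0.05, 0 of the 10 passed, where 0.0853% of all genes tested did, 0.0569% as higher and 0.0284% as lower in HJ-23. With DESeq2 0 of the 10 passed, where 2.31% of genes did, 1.19% as higher. At an unadjusted p below 0.05 in edgeR, 5 of the 10 were higher in HJ-23 and 0 lower, against 6.77% and 5.25% of all genes tested. Groups that did not overlap, with HJ-23 above, were seen for 6 of the 10, against 24.8% of all genes tested. A log2 fold change above 0 was seen for 8 of the 10, against 51% of all genes tested. The median over the 10 was 0.35, beside 0.0086 over all genes tested.

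**Figure D1:**
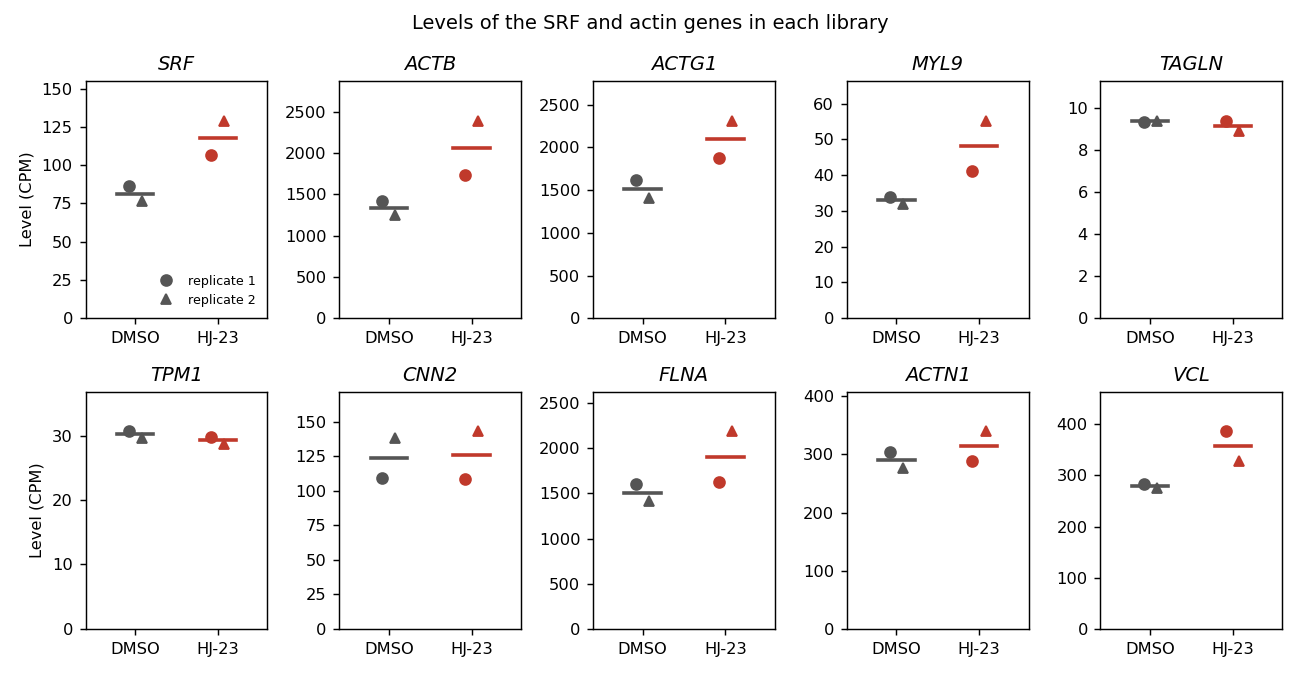
Levels in CPM (vertical axes, each from 0) of the 10 genes in the 4 libraries, with DMSO in grey and HJ-23 in red, circles for replicate 1, triangles for replicate 2 and a line at each group mean. HJ-23 replicate 2 holds the highest value for 7 of the 10 genes, and TAGLN and TPM1 are nearly level across the libraries.

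SRF (ENSG00000112658), the transcription factor itself and a gene with CArG boxes in its own promoter, was read with 2674 and 2237 counts in DMSO and 3784 and 4443 counts in HJ-23. Its level was 86.1 CPM in DMSO replicate 1, 76.5 in DMSO replicate 2, 106.7 in HJ-23 replicate 1 and 129.1 in HJ-23 replicate 2. Both treated libraries lay above both controls, and the treated libraries differed from each other by more than the controls did. The fitted log2 fold change was 0.54 (SE 0.16, edgeR adjusted p = 0.325), with a 95% interval from 0.14 to 0.93 that takes no account of the number of genes tested. Between single libraries the ratio of HJ-23 to DMSO ran from 1.24 to 1.69.

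ACTB (ENSG00000075624) and ACTG1 (ENSG00000184009) encode the beta and gamma cytoplasmic actins, nearly identical proteins that form the filaments of non-muscle cells. ACTB was at 1417 CPM in DMSO replicate 1 and 1248 in DMSO replicate 2, and at 1737 CPM in HJ-23 replicate 1 and 2395 in HJ-23 replicate 2. ACTG1 was at 1623 and 1411 CPM in DMSO and at 1874 and 2315 CPM in HJ-23. For both actins DMSO replicate 2 was the lowest library and HJ-23 replicate 2 the highest. The ratio of HJ-23 to DMSO between single libraries ran from 1.23 to 1.92 for ACTB and from 1.15 to 1.64 for ACTG1. The log2 fold change of ACTG1 was 0.47 (SE 0.17, edgeR adjusted p = 0.377), and that of ACTB, a gene often used as a reference for other transcripts, was 0.63 (SE 0.19, edgeR adjusted p = 0.331).

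Together the actins took 0.303% and 0.261% of all counts in the DMSO libraries, and their share was 0.372% in the first HJ-23 library and 0.465% in the second. The balance between them also differed by library. There were 0.873 and 0.885 counts of ACTB per count of ACTG1 in DMSO, and 0.927 and 1.03 in HJ-23, so the 2 groups did not overlap in this ratio; with 2 libraries a group an exact permutation test cannot reach 0.05, and none was run. The actin family has many close copies in the genome. Of the 50-base windows of the longest ACTB coding transcript in GENCODE 29, 10.3% occur unchanged in transcripts of 17 other genes, and 4.27% occur in 7 other genes listed in the count tables. For ACTG1 these shares were 3.58% and 0.453%, while VCL shared 1.30% of its windows with other genes, ACTN1 0.912%, and SRF, MYL9, TAGLN and TPM1 none. The authors' counting could have split such reads between genes, so the actin values carry that uncertainty.

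MYL9 (ENSG00000101335) encodes a regulatory light chain of myosin II, the motor that pulls on actin filaments. It was at 34.0 and 32.0 CPM in DMSO and at 41.0 and 55.3 CPM in HJ-23, so the groups were apart and the treated pair was spread more widely than the controls. The log2 fold change was 0.55 (SE 0.20, edgeR adjusted p = 0.378). Its close relatives MYL12A and MYL12B, which encode the regulatory light chains of non-muscle cells, lay the other way. MYL12A was at 335.9 and 356.7 CPM in DMSO and at 291.4 and 307.7 CPM in HJ-23, and MYL12B at 474.4 and 491.8 CPM in DMSO and at 426.7 and 430.6 CPM in HJ-23. There were 0.0420 and 0.0377 counts of MYL9 per count of MYL12A and MYL12B in DMSO, against 0.0572 and 0.0749 in HJ-23. None of these 3 light chain genes passed the test in edgeR.

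The filament regulators gave a different picture from the actins. TAGLN (ENSG00000149591) encodes transgelin, an actin-binding protein of the calponin family that is abundant in smooth muscle, and it is a classic MRTF and SRF target. It was at 9.33 and 9.40 CPM in DMSO and at 9.39 and 8.92 CPM in HJ-23, the least abundant of the 10 genes. TPM1 (ENSG00000140416), a tropomyosin that winds along actin filaments, was at 30.7 and 29.7 CPM in DMSO and at 29.8 and 28.7 CPM in HJ-23. Both were nearly level across the 4 libraries, with intervals for the log2 fold change from -0.46 to 0.40 for TAGLN and from -0.43 to 0.34 for TPM1. The intervals leave room for a difference in either direction. CNN2 (ENSG00000064666), the non-muscle calponin, was at 109.1 and 137.9 CPM in DMSO and at 108.5 and 143.0 CPM in HJ-23. For CNN2 the replicate 2 library was the higher in both groups, and its log2 fold change was 0.027 (SE 0.20, edgeR adjusted p = 0.967).

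FLNA (ENSG00000196924) encodes filamin A, which crosslinks actin filaments into networks and ties them to membrane proteins. It was at 1600.2 and 1413 CPM in DMSO and at 1628 and 2189 CPM in HJ-23. The groups were apart by little, since HJ-23 replicate 1 lay only 1.02-fold above DMSO replicate 1. The log2 fold change was 0.34 (SE 0.19, edgeR adjusted p = 0.496). ACTN1 (ENSG00000072110), the alpha-actinin that bundles filaments in stress fibres and adhesions, was at 303.8 and 277.2 CPM in DMSO and at 289.3 and 339.6 CPM in HJ-23, with HJ-23 replicate 1 between the controls. Its log2 fold change was 0.11 (SE 0.15, edgeR adjusted p = 0.774).

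VCL (ENSG00000035403) encodes vinculin, which links integrin and cadherin adhesions to actin filaments. It was at 282.6 and 275.8 CPM in DMSO and at 386.1 and 327.4 CPM in HJ-23. Both treated libraries lay above both controls, and here HJ-23 replicate 1 was the higher of the treated pair, unlike in the actins, SRF, MYL9 and FLNA. The log2 fold change was 0.35 (SE 0.14, edgeR adjusted p = 0.414).

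**Figure D2:**
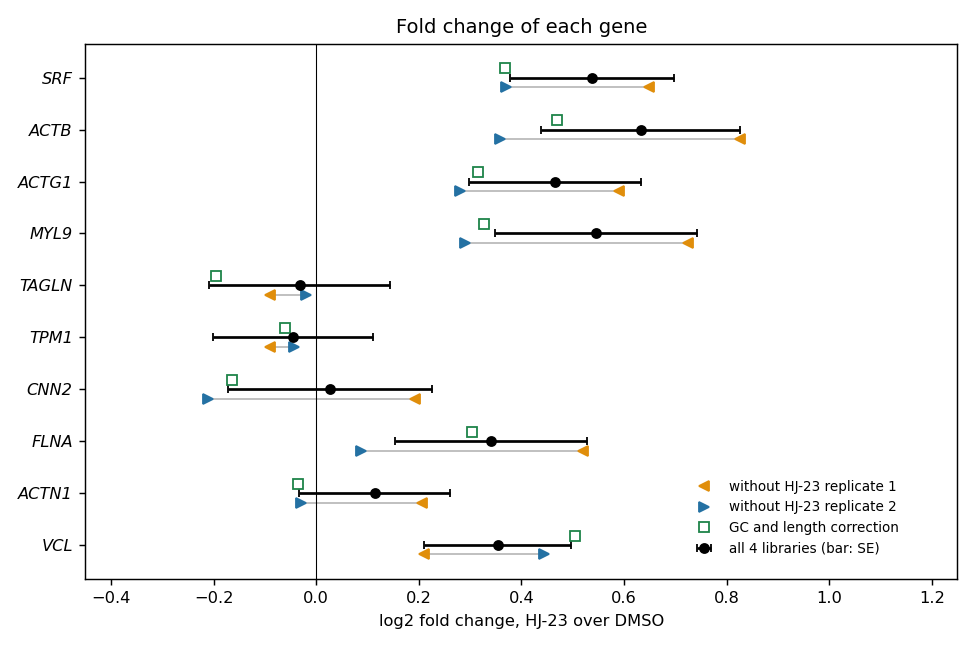
Log2 fold change of HJ-23 over DMSO (horizontal axis) for the 10 genes, fitted on all 4 libraries (black, bar for the SE), after a correction for GC content and length (green squares), and without either HJ-23 library (triangles). SRF, ACTB, ACTG1, MYL9, FLNA and VCL stay above 0 in each of these fits, while CNN2 and ACTN1 lie on both sides of 0.

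The treated libraries did not contribute alike. The 10 genes together made up 0.549% of all counts in DMSO replicate 1, 0.483% in DMSO replicate 2, 0.640% in HJ-23 replicate 1 and 0.784% in HJ-23 replicate 2. ACTB, ACTG1, SRF, MYL9 and FLNA shared 1 order of the libraries, from HJ-23 replicate 2 at the top through HJ-23 replicate 1 and DMSO replicate 1 to DMSO replicate 2. That order, chosen after the values were seen, was found for 12.2% of all genes tested. Without HJ-23 replicate 2 the median log2 fold change of the 10 genes was 0.18, with ACTB at 0.36 and FLNA at 0.087, and without HJ-23 replicate 1 the median was 0.36, with ACTB at 0.83 and FLNA at 0.52. VCL went the other way, at 0.44 with only the first HJ-23 library kept and 0.21 with only the second kept.

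GC content moved with the fold changes across genes, with a Spearman correlation of 0.38 over 14047 genes that share the same 4 libraries. The 10 genes had a median GC content of 57.5%, against 50.7% over all genes tested. VCL, at 48.6%, was the lowest of the 10 and TPM1, at 50.9%, the next. With a smooth trend on GC content and length removed from each library, the log2 fold change was 0.37 for SRF, 0.47 for ACTB, 0.32 for ACTG1 and 0.33 for MYL9, each smaller than before. VCL was at 0.51 after the correction, larger than before, and FLNA at 0.30. ACTN1 and CNN2 turned to -0.036 and -0.16. TAGLN and TPM1, below 0 before, were at -0.19 and -0.060. After the correction 6 of the 10 genes were above 0, against 8 before it. None of the 10 genes passed in edgeR after the correction, where 0.263% of genes did, and 5 of them had an unadjusted p below 0.05, where 17.7% of genes did in that fit.

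Levels can be set against each other between genes only per length, here CPM per kilobase of the median coding transcript in GENCODE 29. In DMSO the means were 774 for ACTG1, 736 for ACTB, 182 for FLNA, 95.5 for ACTN1, 57.6 for CNN2, 46.6 for VCL, 27.4 for TPM1, 19.3 for SRF, 17.2 for MYL9 and 7.63 for TAGLN. The actins, which build the filament, thus stood above every crosslinker, and the transcription factor was near the bottom. The ranges of ACTB and ACTG1 overlapped in both groups. In HJ-23 the means were 1140 for ACTB and 1069 for ACTG1, then 231 for FLNA and 103 for ACTN1. VCL and CNN2 followed at 59.6 and 58.7, then SRF at 28.1, TPM1 at 26.6, MYL9 at 25.05 and TAGLN at 7.46. The libraries of VCL and CNN2 overlapped in HJ-23 but not in DMSO, and those of SRF overlapped with MYL9 and with TPM1 in HJ-23 only. The place of TPM1 depends on the length taken, since it has 17 coding transcripts in that annotation.

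The relatives of the 10 genes gave a mixed picture. Of 19 listed relatives, 15 were tested, 9 lay above 0 on the log2 scale, and the median change was 0.37. With edgeR 0 passed, 3 were higher and 0 lower at an unadjusted p below 0.05, and DESeq2 called 1, ACTA2. For this and the lists below, 6.77% of all genes tested were higher and 5.25% lower at that p. Over all genes, edgeR called 0.0853% and DESeq2 2.31%. ACTA2, the smooth muscle alpha-actin, was at 12.8 and 11.3 CPM in DMSO and at 20.98 and 24.96 CPM in HJ-23; its log2 fold change was 0.93 (SE 0.19, edgeR adjusted p = 0.229). TPM4, a tropomyosin of non-muscle cells, was at 406.6 and 472.4 CPM in DMSO and at 573.5 and 558.9 in HJ-23, while TPM1 was level. There were 0.0336 and 0.0288 counts of TPM1 per count of TPM2, TPM3 and TPM4 in DMSO, and 0.0265 and 0.0256 in HJ-23. For ACTN1 there were 0.225 and 0.262 counts per count of ACTN4 in DMSO, and 0.1996 and 0.186 in HJ-23. For CNN2 against CNN3 and for TAGLN against TAGLN2 the groups overlapped, at 0.551 and 0.707 against 0.598 and 0.841 for CNN2, and at 0.0398 and 0.0421 against 0.0515 and 0.0378 for TAGLN. ACTC1, ACTG2, ACTBL2 and CNN1 were too low to be tested.

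**Figure D3:**
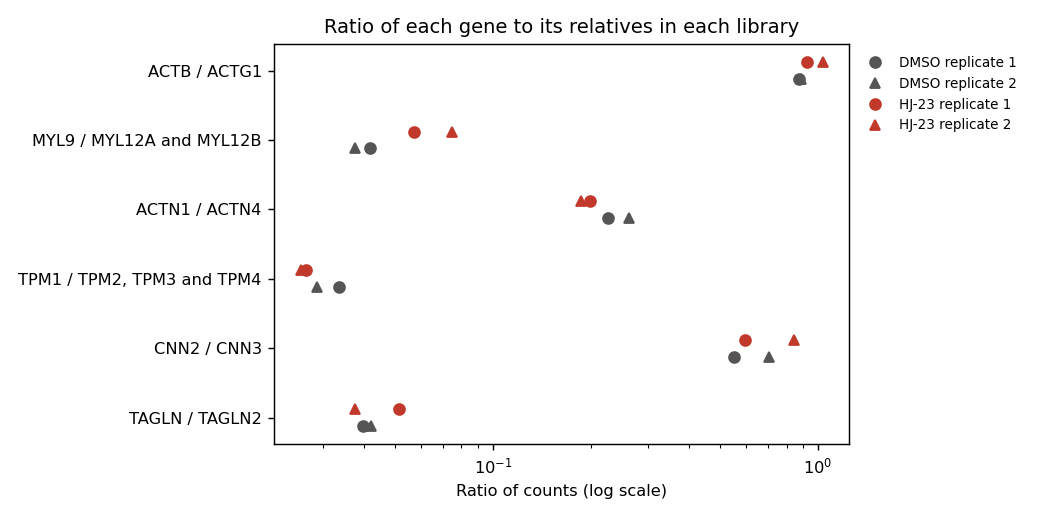
Ratio of the counts of each gene to those of its relatives (horizontal axis, log scale) in the 4 libraries, DMSO in grey and HJ-23 in red, circles for replicate 1 and triangles for replicate 2. MYL9 against MYL12A and MYL12B lies higher in both HJ-23 libraries, and ACTN1 against ACTN4 and TPM1 against its relatives lie lower in both.

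Of 7 SRF cofactors, 6 were tested and their median log2 fold change was 0.0056. With edgeR 0 passed, 0 were higher and 2 lower at an unadjusted p below 0.05, and DESeq2 called MRTFB lower. MRTFB, an actin-sensing coactivator, was at 46.1 and 25.7 CPM in DMSO and at 17.3 and 11.5 CPM in HJ-23, a log2 fold change of -1.31 (SE 0.34, edgeR adjusted p = 0.297). Its controls lay further apart than the nearest libraries of the 2 groups did. MRTFA, the other coactivator of the pair, was at 41.2 and 41.6 CPM in DMSO and at 47.0 and 44.7 CPM in HJ-23. Among the ternary complex factors, ELK4 had a log2 fold change of -0.50 and ELK1 of 0.27, and neither passed. MYOCD, the coactivator of muscle, had a count of 0 in each library.

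Further genes known as MRTF and SRF targets had a median log2 fold change of 0.33 over 14 tested, 11 of them positive. With edgeR and with DESeq2 0 passed, and 2 were higher and 1 lower at an unadjusted p below 0.05 in edgeR. FHL2, a LIM-domain protein of adhesions, was at 128.6 and 118.1 CPM in DMSO and at 146.8 and 202.5 CPM in HJ-23. CCN1, a secreted matrix protein, was at 26.9 and 21.6 CPM in DMSO and at 29.2 and 40.0 CPM in HJ-23. PDLIM5, an adaptor of the actin cytoskeleton, lay the other way, at 107.5 and 82.0 CPM in DMSO and at 63.9 and 66.5 CPM in HJ-23. In these 3 genes, named for having the smallest p in the list, the groups did not overlap. Of the 14 tested, 7 had both HJ-23 libraries above both DMSO libraries, 3 had them below, and 4 overlapped. Over all genes tested 24.8% lay above in this way and 21.2% below.

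The immediate early genes that SRF drives with ternary complex factors had the highest median of the lists examined, 0.74 over 9 tested, with 7 positive. With edgeR 0 passed, and 6 were higher and 0 lower at an unadjusted p below 0.05, against 6.77% and 5.25% of all genes tested. DESeq2 called EGR2 and JUNB, where 2.31% of genes were called. JUNB, an AP-1 subunit, was at 525.0 and 453.3 CPM in DMSO and at 776.8 and 852.9 CPM in HJ-23. EGR2, a zinc finger transcription factor, was at 8.53 and 7.48 CPM in DMSO and at 16.9 and 13.4 CPM in HJ-23. NR4A1, an orphan nuclear receptor, had a log2 fold change of 0.54. The 2 genes below 0 were FOS and MCL1. FOS was level, at 33.8 and 33.2 CPM in DMSO and at 36.7 and 30.0 CPM in HJ-23. MCL1 was lower in both HJ-23 libraries, with a log2 fold change of -0.24. Earlier results on JUNB and EGR2 in these libraries were known when the list was drawn up.

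Among 21 genes for actin monomer binding and turnover, the median was 0.12, 14 were positive, and 0 passed in edgeR or DESeq2, with 2 higher and 0 lower at an unadjusted p below 0.05 in edgeR. PFN2, a profilin that feeds monomers to growing filaments, was at 78.2 and 61.4 CPM in DMSO and at 107.9 and 101.8 CPM in HJ-23. LIMK2, a kinase that turns off the filament-severing cofilins, had a log2 fold change of 0.48, and SSH2, a phosphatase that turns them on again, of -0.39. Their relatives did not share this contrast. LIMK1 and SSH3 had overlapping groups, with log2 fold changes of 0.36 and 0.15, and SSH1 was at -0.066. Of 22 genes for actin nucleation, 13 were positive, the median was 0.044, and 0 passed in edgeR or DESeq2, with 1 higher and 1 lower at an unadjusted p below 0.05 in edgeR. ACTR2 and ARPC4, subunits of the complex that branches filaments, lay in opposite directions. ACTR2 was at 288.3 and 277.2 CPM in DMSO against 195.5 and 201.7 in HJ-23, and ARPC4 at 68.8 and 67.1 CPM against 81.2 and 118.7. The groups overlapped for the subunits ACTR3, ARPC1A, ARPC1B, ARPC2 and ARPC3. ARPC5L was higher and ARPC5 lower in both HJ-23 libraries.

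Non-muscle myosin II and its regulators had a median of -0.12 over 10 genes, 3 of them positive, with 0 passing in edgeR or DESeq2 and 1 higher and 2 lower at an unadjusted p below 0.05 in edgeR. The heavy chains MYH9 and MYH10 differed in direction, while MYH14 had overlapping groups and a log2 fold change of 0.10. MYH9 was at 1145 and 1128 CPM in DMSO and at 1349 and 1588 CPM in HJ-23, and MYH10 at 71.2 and 108.2 CPM in DMSO and at 57.1 and 41.3 CPM in HJ-23. PPP1CB, the catalytic subunit of myosin phosphatase, was at 260.6 and 252.4 CPM in DMSO and at 192.9 and 162.1 in HJ-23.

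The focal adhesion list, mostly neighbours of VCL in function, had a median of 0.14 over 24 tested genes, 14 of them positive. With edgeR 0 passed, 6 were higher and 0 lower at an unadjusted p below 0.05, and DESeq2 called ZYX. ZYX, which encodes zyxin, a protein of strained actin bundles, was at 115.3 and 109.2 CPM in DMSO and at 215.6 and 177.5 CPM in HJ-23, a log2 fold change of 0.81 (SE 0.15, edgeR adjusted p = 0.218). As in VCL, HJ-23 replicate 1 was the highest library. ITGB4, an integrin subunit of hemidesmosomes, was at 914.9 and 833.2 CPM in DMSO and at 1124 and 1644 in HJ-23, and TNS4, a tensin, had a log2 fold change of 0.43. Other filament-binding and bundling genes had a median of -0.092 over 15 tested, 5 of them positive, with 0 passing in edgeR, 1 higher and 3 lower at an unadjusted p below 0.05, and ANLN called by DESeq2. ANLN, the anillin of the cleavage furrow, was at 128.4 and 201.6 CPM in DMSO and at 101.0 and 64.9 in HJ-23. DBN1, which encodes drebrin, had a log2 fold change of 0.55, and SPTAN1, a spectrin, one of -0.48.

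**Figure D4:**
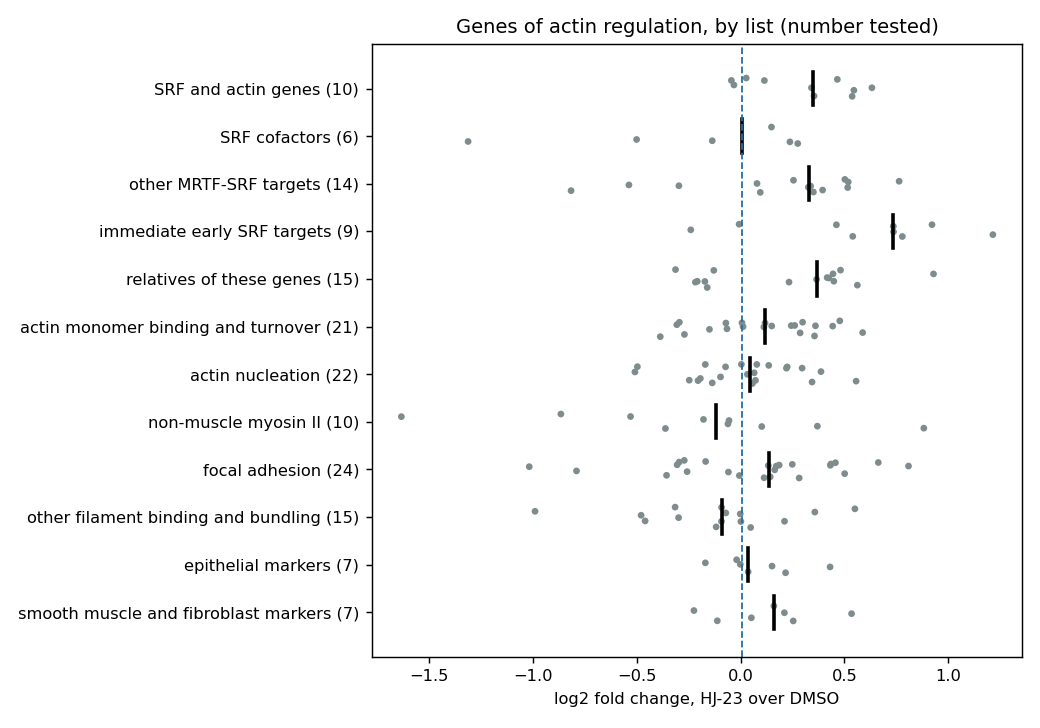
Log2 fold change of HJ-23 over DMSO (horizontal axis) for each tested gene of the lists described, with the number tested in brackets, a black bar at each list's median and a dashed line at the median of all genes tested, 0.0086. None of the genes plotted passed in edgeR, and the immediate early genes have the highest median, 0.74.

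Epithelial markers had a median log2 fold change of 0.036 over 7 tested genes, and smooth muscle and fibroblast markers one of 0.16 over 7, with 0 passing in edgeR or DESeq2 and 0 at an unadjusted p below 0.05 in either list. The keratin KRT18 was at 502.8 and 482.6 CPM in DMSO and at 564.1 and 764.0 in HJ-23, and its partner KRT8 had overlapping groups. ELF3, an epithelial transcription factor, had overlapping groups as well. The mesenchymal filament gene VIM was at 33.3 and 31.8 CPM in DMSO and at 37.1 and 38.3 in HJ-23, and the collagen gene COL1A1 had a log2 fold change of -0.11. The part that other cell types might have in the actin values was not tested.

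Across all genes tested, those with and without a CArG box had nearly the same median. Of the tested genes with a promoter window, 175 had a box. Their median log2 fold change was 0.027, against 0.0043 for the 10962 without. Of the 175, 0 passed in edgeR and 5 in DESeq2, and at an unadjusted p below 0.05 in edgeR 10.3% were higher and 6.86% lower, where all genes tested gave 6.77% and 5.25%. Groups that did not overlap were seen with HJ-23 above for 25.1% of them and below for 20.6%, where all genes tested gave 24.8% and 21.2%. Among the 10 genes, SRF, ACTG1, FLNA, ACTN1 and CNN2 had a box, and their log2 fold changes ran from 0.027 for CNN2 to 0.54 for SRF. VCL and TPM1, without one in their windows, were at 0.35 and -0.045. In the lists above, genes with a box had a median of 0.34 over 5 further MRTF and SRF targets. The median was 0.69 over 2 immediate early genes and 0.46 over 2 relatives. Tested genes of these 3 lists without a box had medians of 0.086, 0.74 and 0.052. MYLK and SVIL, with a box in the myosin and filament-binding lists, were at -0.18 and -0.12. The lists were chosen by name, and any part of the box in these values was not tested.

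The genes whose pattern over the 4 libraries was closest to that of SRF were CDC42BPG, MGRN1 and DUOX1, out of 8150 genes with a mean of at least 20 CPM. Likeness was the root mean square difference of the log2 levels, each centred on its own mean, and it was 0.0168, 0.0170 and 0.0173. CDC42BPG, a kinase that binds CDC42, was at 70.7 and 63.6 CPM in DMSO and at 85.9 and 105.6 CPM in HJ-23. For ACTB the closest were VARS1, RIN1 and NCLN, at 0.0138, 0.0149 and 0.0172. VARS1, the valyl-tRNA synthetase, was at 223.9 and 202.4 CPM in DMSO and at 278.6 and 385.8 CPM in HJ-23. With 4 libraries such closeness is a description of these libraries only.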

How the data were processed

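The authors deposited raw counts per Ensembl gene, 1 table per library, as whole numbers without normalization. FastQC, Trimmomatic, HISAT2, bedtools and RSEM are named in the submitters' processing notes without versions; genome build and strand setting: not given in the sources used here. Low counts were mostly even (69.6% to 72.3% of counts from 1 to 8), so both mates of a fragment appear to have been counted, and the limit for a count of 0 was set at 6 counts, for counting error only. Symbols came from a gene name table (20148 identifiers) and GENCODE 29 (76), with 39 unnamed; lengths and GC content came from GENCODE 29.

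In R 4.3.3, edgeR 4.0.16 was run with filterByExpr, TMM factors (0.983 to 1.03), robust dispersions and the legacy quasi-likelihood F-test, and p-values were adjusted by Benjamini-Hochberg across the 14062 genes. DESeq2 1.42.0 was an alternative. The fits were tested on simulated data. Fold changes are HJ-23 over DMSO, and the SE is the log2 fold change over the square root of F. The model had 2 residual degrees of freedom. Chi-square per degree of freedom between libraries ran from 36.5 to 138.9, so no library was a repeat of another.

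The 10 genes and the 12 further lists (184 genes) were chosen with earlier results of these data known. A list among these and a relative of the 10 genes are not reported here. Named genes were the 10 genes, up to 3 genes of each list with the smallest p and a mean of at least 10 CPM, list genes past the threshold and the 3 genes with a mean of at least 20 CPM closest in pattern to SRF and to ACTB. Some genes fall outside that rule and were added after their values were seen. These are MRTFA, FOS, MCL1, LIMK1, SSH1, SSH3, MYH14, MYLK, SVIL, further subunits of the branching complex and the relatives used in ratios. Genes at or near a count of 0 and the genes under the other observations are also among them.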

Additional observations from a re-analysis of the deposited data

How the results depend on the processing

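The signs of SRF, ACTB, ACTG1, MYL9, VCL and FLNA (above 0) and of TPM1 and TAGLN (below 0) held in all 14 alternatives, except that TAGLN had no value with a minimum mean of 10 CPM. CNN2 turned to -0.16 with the GC and length correction and ACTN1 to -0.036, and to -0.15 and -0.035 with that correction and the replicate block. With 1 library left out, CNN2 ran from -0.21 to 0.19, ACTN1 from -0.031 to 0.21, and the median of the 10 genes from 0.18 (without HJ-23 replicate 2) to 0.40 (without DMSO replicate 1); the cause was not tested. Of the 10 genes 0 passed in 13 of the 14 alternatives. Over all genes, 12 passed in edgeR, against 311 with DESeq2, 31 with no filter, 37 with the GC and length correction, 0 with a minimum mean of 10 CPM (1253 at an unadjusted p below 0.05) and 0 to 273 with 1 library left out; of the fits with 0 calls, the one lacking HJ-23 replicate 1 had 3501 genes at an unadjusted p below 0.05 and the one lacking HJ-23 replicate 2 had 1377; there were 273 calls without DMSO replicate 1 and 157 without DMSO replicate 2. A fit without a DMSO or HJ-23 library assumes that the lone library varies like the other group.

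The replicate numbers share no stated batch. With the replicate number as a block 294 genes and 0 of the 10 passed in edgeR, and with the GC and length correction as well 0 genes passed (1670 at an unadjusted p below 0.05). Deviations of same-numbered libraries from their group means correlated at -0.30 over 10049 genes, and with the numbers crossed, an alternative chosen after seeing the data, 966 genes and 3 of the 10 passed. Scaling by library totals, also added after seeing the data, moved the median of all genes from 0.0086 to 0.036.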

Other observations

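Several genes of the lists had libraries of 1 group that lay far apart, and were chosen after their values were seen. SCAI, which encodes a repressor of MRTF and SRF, was at 10.1 CPM in DMSO replicate 1 and 57.6 in DMSO replicate 2, with 47.8 and 31.9 CPM in the HJ-23 libraries. IER2, an immediate early gene, was at 133.4 and 20.6 CPM in the DMSO libraries and at 145.0 and 212.8 in the HJ-23 libraries. LPP, a focal adhesion protein related to zyxin, was at 32.4 and 32.0 CPM in DMSO but at 60.6 and 20.02 CPM in HJ-23 replicates 1 and 2. PPP1R12B, a regulatory subunit of myosin phosphatase, was at 40.2 and 45.3 CPM in DMSO and at 4.79 and 22.8 CPM in HJ-23. The groups overlapped for SCAI and LPP and did not for IER2, higher in HJ-23, and PPP1R12B, lower in HJ-23, and none of these 4 genes passed in edgeR or DESeq2.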
